A study of Rattus norvegicus with 9 samples.

Results

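The 4 mature miRNAs described here are the 5p and 3p arms of miR-126a and of miR-223. They were taken by name, after removal of the species prefix, from a matrix of 567 miRNAs counted in rat serum, and all 4 were present. The study modelled Parkinson's disease in adult male wild-type Wistar rats with rotenone, an inhibitor of mitochondrial complex I given into the peritoneum at 2 mg per kg per day. Small RNA was sequenced in 9 serum libraries. The 3 EPD libraries (early disease) came from rats treated for 10 days, the 3 LPD libraries (late disease) from rats treated for more than 40 days, and 3 libraries are labelled Control. The treatment label and protocol have the same wording in all groups, and what the controls received is not stated. Serum was separated from clotted blood, and no label says whether each library came from 1 animal or a pool, so each p-value reflects spread among these libraries, which may be technical.

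miR-126a lies in the gene Egfl7 and is made mainly by endothelial cells, with copies in platelets. Its 3p arm represses Spred1 and Pik3r2 and so favours signalling by vascular growth factors. The 3p arm also represses the adhesion molecule Vcam1, and the 5p arm is known for repressing Dlk1 in endothelium. miR-223 is a miRNA of neutrophils, monocytes and platelets that restrains granulocyte production and the inflammasome sensor Nlrp3. A precursor hairpin is cut into a duplex of a 5p and a 3p strand, 1 strand is usually kept in Argonaute and the other is mostly degraded. Clotting activates platelets, which release miRNAs into serum. In serum, more cells of a source and more release per cell cannot be told apart.

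The mature sequences are shown because the arms of 1 precursor are separate miRNAs with separate targets. Capitals mark the seed, bases 2 to 8 from the 5′ end, which pairs with target transcripts.
miR-126a-5p: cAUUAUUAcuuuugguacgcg
miR-126a-3p: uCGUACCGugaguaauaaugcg
miR-223-5p: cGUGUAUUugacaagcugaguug
miR-223-3p: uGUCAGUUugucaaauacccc

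These sequences are from RefSeq on build GRCr8, where all 4 names were found. That table places miR-126a-5p at chr3:29813182-29813202 and miR-126a-3p at chr3:29813219-29813240, both on the plus strand and within the protein-coding gene Egfl7. It places miR-223-5p at chrX:65151408-65151430 and miR-223-3p at chrX:65151450-65151470, also on the plus strand and within the long non-coding RNA LOC120099372. The deposited counts carry no coordinates and were made on another build. The 4 seeds differ from each other, and 0 other miRNAs in the table share any of them. Both 3p arms begin with U and both 5p arms with C. The arms are 21 to 23 bases long. A mature miR-126b from the opposite strand overlaps miR-126a-5p by 17 bases. The matrix holds 0 rows of that name, so miR-126b could not be analysed here. The sources do not say whether counting used the strand.

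Depth differed with the group. Control libraries held 1108167 to 1539557 counts, EPD libraries 1136537 to 1668807, and LPD libraries 132609 to 305019. From the number of undetected miRNAs, each molecule stood for an estimated 12.3 to 49.1 counts in LPD and 1.01 to 2.74 elsewhere, so 3 molecules stood for 244 to 662 CPM (the authors' counts scaled to a common library size with TMM factors) in LPD. The estimate assumes the mean Control and EPD profile in every library. miRNAs truly absent from LPD would lower the estimated number of molecules there. In the library Control 2 the hepatocyte miRNA miR-122-5p took 44.3% of all counts, against 1.07 to 5.14% in the other 8 libraries. Intervals cover counting error only.

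In late rotenone serum the 5p arm of miR-126a stood 2.87-fold above Control and 3.73-fold above early rotenone serum, while its 3p arm did not pass the test. miR-223-3p was about 2.3-fold above Control. miR-223-5p, the minor arm of its precursor, was detected in 2 of 3 late libraries and did not pass. After 10 days 0 of the 4 arms passed the test, and 0 of all 294 tested miRNAs did.

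**Figure D1:**
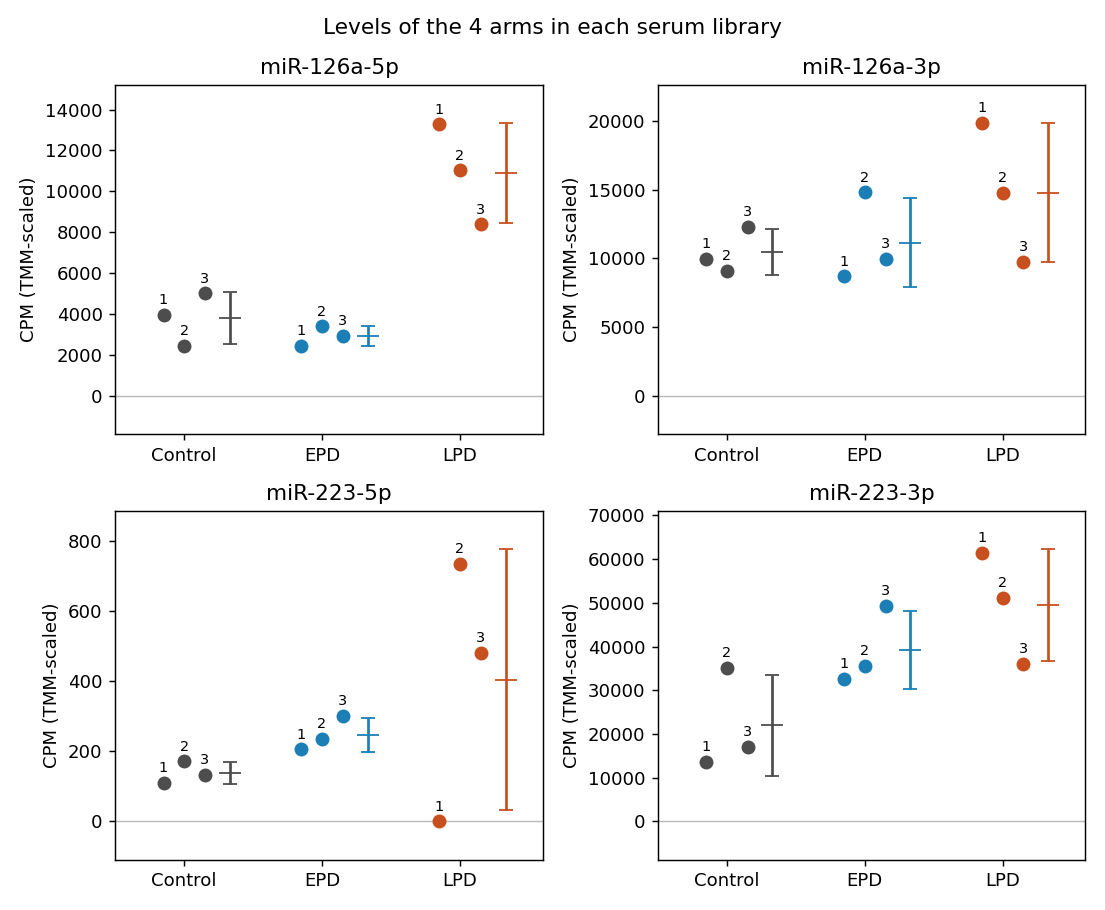
TMM-scaled CPM (vertical axes, linear, with a grey line at 0) of the 4 arms in the Control, EPD and LPD libraries. Points are libraries with their replicate number, and the bar beside each group is the mean ± SD of n = 3. The LPD points of miR-126a-5p lie between 8380 and 13269 CPM, above all 6 others, and miR-223-5p is at 0 in LPD 1.

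miR-126a-5p had 3950, 2445 and 5001 CPM in Control 1, 2 and 3. In EPD it had 2445, 3391 and 2926 CPM, and in LPD 13269, 11018 and 8380 CPM. All 3 LPD libraries were higher than any other library, and EPD and Control overlapped. Group means were 3799 ± 1285 CPM in Control, 2921 ± 473 in EPD and 10889 ± 2447 in LPD (SD, n = 3 each). LPD exceeded Control by a log2 fold change of 1.52 (SE 0.32, 2.87-fold, edgeR adjusted p = 0.00657) and EPD by 1.90 (SE 0.33, 3.73-fold, adjusted p = 0.00576). Both calls held in all 18 alternatives run, with adjusted p of at most 0.0322 and 0.0245. EPD against Control gave -0.38 (SE 0.32, adjusted p = 0.995), or -0.09 without Control 3. In order of abundance it ranked 37th to 50th of 567 miRNAs in the Control and EPD libraries and 16th to 23rd in LPD. Its LPD counts of 4006, 2449 and 1271 stood for an estimated 109, 49.9 and 103 molecules.

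miR-126a-3p, the more abundant arm, had 9968, 9069 and 12313 CPM in Control 1, 2 and 3. In EPD it had 8691, 14809 and 9956 CPM, and in LPD 19864, 14761 and 9758 CPM. LPD 1 was the highest library and LPD 3 lay within the Control range, so the groups overlapped in each comparison. The means were 10450 ± 1675 CPM in Control, 11152 ± 3230 in EPD and 14794 ± 5053 in LPD. LPD against Control gave 0.50 (SE 0.33, adjusted p = 0.278), LPD against EPD 0.41 (SE 0.33, adjusted p = 0.382) and EPD against Control 0.09 (SE 0.32, adjusted p = 0.995). With LPD 3 left out the first of these was 0.94 and passed (adjusted p = 0.0361). Without EPD 2 the last was -0.16. The second was 0.75 without LPD 3 and 0.62 without EPD 2, and neither passed.

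miR-223-3p was the most abundant of the 4 arms. It had 13691, 35042 and 17144 CPM in Control 1, 2 and 3. In EPD it had 32641, 35669 and 49305 CPM, and in LPD 61446, 51235 and 35997 CPM. Control 2 stood at the level of the EPD libraries, and the lowest LPD library lay just above it, so LPD and Control did not overlap but EPD and Control did. The means were 21959 ± 11461 CPM in Control, 39205 ± 8877 in EPD and 49559 ± 12807 in LPD. LPD exceeded Control by 1.17 (SE 0.39, 2.26-fold, adjusted p = 0.0418). It passed in 10 of 18 alternatives. It was lost with only the 2 groups fitted (adjusted p = 0.111), with the replicate number as a block (0.0517), and when 1 library was left out, for Control 1 or 3, EPD 2 or 3, and LPD 1 or 2 (0.0515 to 0.138). Without Control 2 the difference was 1.86 (adjusted p = 0.00993).

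The step of miR-223-3p from Control to EPD was 0.84 (SE 0.39, adjusted p = 0.995), or 1.45 without Control 2 (adjusted p = 0.343). As an unscaled share of all counts, it took 1.52, 2.34 and 1.93% in Control, 2.86, 4.07 and 4.90% in EPD and 6.08, 5.43 and 4.12% in LPD. On that scale, unlike in TMM-scaled CPM, every EPD library lay above every Control library. Control 2 had 44.3% of its counts in miR-122-5p, which lowers its other shares. How many of all miRNAs separated on the unscaled share was not counted. With library totals in place of TMM the EPD step was 1.03 (adjusted p = 0.995), and it passed in 0 of 18 alternatives. LPD against EPD gave 0.34 (SE 0.39, adjusted p = 0.547), or 0.65 without LPD 3 and 0.22 without EPD 2. The order of means was thus Control, EPD, LPD, with neither neighbouring step passing the test.

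miR-223-5p had 109, 171 and 134 CPM in Control 1, 2 and 3. In EPD it had 206, 236 and 300 CPM, and in LPD 0, 733 and 481 CPM. The EPD libraries were all higher than the Control libraries, and the LPD libraries lay on both sides of the rest. The means were 138 ± 31.2, 247 ± 48.3 and 405 ± 373 CPM. The fit gave 0.84 for EPD against Control (SE 1.26, adjusted p = 0.995), 1.55 for LPD against Control (SE 1.29, adjusted p = 0.388) and 0.71 for LPD against EPD (SE 1.26, adjusted p = 0.710). The spread behind each SE was estimated over all 3 groups, with the 0 of LPD 1 in it. With only Control and EPD fitted, their difference was 0.91 (edgeR adjusted p = 0.363). The values of LPD depended on single libraries. Without LPD 1 LPD against Control was 2.37 and passed (adjusted p = 0.0123), and LPD against EPD was 1.45 (adjusted p = 0.0503). Without LPD 2 they were 0.76 and -0.16. A count of 0 in LPD 1 allows up to 9.94 CPM by counts, but 3 molecules stood for 364 CPM there, above every Control and EPD value. The 163 and 73 counts of LPD 2 and LPD 3 stood for an estimated 3.32 and 5.92 molecules, so the level in LPD is poorly determined.

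**Figure D2:**
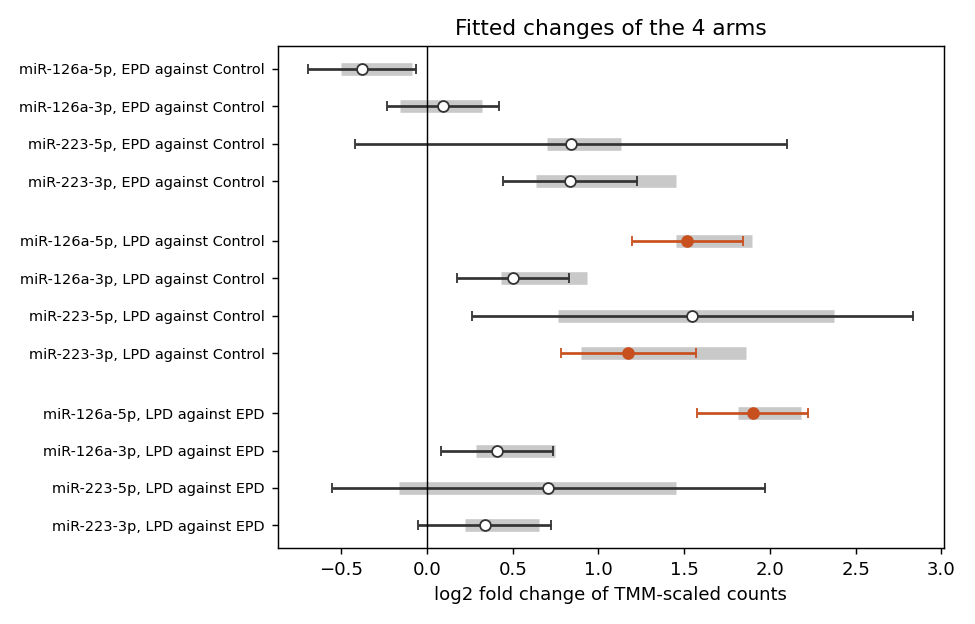
Log2 fold changes of the 4 arms in the 3 comparisons (horizontal axis). Points are fitted values with their SE, filled where the adjusted p was under 0.05, and grey bars span the values with each library left out in turn. The filled points are miR-126a-5p at 1.52 and 1.90 and miR-223-3p at 1.17.

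These calls stand before a wide background. In LPD against Control 37.1% of 294 tested miRNAs were called, but only 4.42% were called higher, and 2 of the 4 arms were among those. The median log2 fold change of all tested miRNAs was -1.04. In LPD against EPD 36.7% were called and 4.08% were called higher, the latter including 1 of the 4 arms, and the median was -0.92. In EPD against Control edgeR called 0%, with 11 miRNAs under an unadjusted p of 0.05, while limma-voom called 0 and DESeq2 called 1. The 11 depend on a spread shared with LPD. With only Control and EPD fitted, 35 of 301 miRNAs were under that unadjusted p and 0 were called. By lack of overlap alone, 48.3% of miRNAs separated LPD from Control, 52.4% LPD from EPD and 12.9% EPD from Control. Of the 4 arms, 2, 1 and 1 did so, all of them upward. Separation upward was found in 6.46, 6.8 and 4.76% of all tested miRNAs. The split of calls differed among the 124 miRNAs with counts in all 9 libraries. There 16 were called higher and 22 lower in LPD against Control (median 0.04), and 17 higher and 18 lower in LPD against EPD (median 0.22). miR-126a-5p and miR-223-3p kept their calls in that set.

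The ratio of the 2 arms within a library does not depend on the scaling between libraries. The 5p arm made up 28.4, 21.2 and 28.9% of miR-126a reads in Control 1, 2 and 3. It made up 21.9, 18.6 and 22.7% in EPD and 40.1, 42.7 and 46.2% in LPD. LPD was higher than every other library, and EPD and Control overlapped. Wilson intervals at 95% computed on estimated molecules were 34.4 to 46.0%, 34.1 to 51.8% and 39.8 to 52.7% in the LPD libraries. Every lower bound there was above the highest upper bound of the other 6 libraries, 29.4%.

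In log2 terms the 5p to 3p ratio of miR-126a was -1.51 ± 0.33 in Control, -1.91 ± 0.19 in EPD and -0.41 ± 0.18 in LPD (SD, n = 3 each). The 3p arm thus had 2.85 times the reads of the 5p arm in Control, 3.75 times in EPD and 1.33 times in LPD. LPD against EPD rose by 1.50 (SE 0.43, 95% interval 0.50 to 2.50, limma adjusted p = 0.0481). LPD against Control was 1.1 higher (SE 0.43, interval 0.10 to 2.1) and did not pass (adjusted p = 0.131). EPD against Control was -0.40 (SE 0.43, interval -1.40 to 0.60, adjusted p = 0.995), or -0.59 without Control 2. By the exact two-sided permutation test the p was 0.1, 0.1 and 0.3, where 0.1 is the smallest that 3 against 3 libraries allow (0.45, 0.45 and 0.675 adjusted over 9 such tests).

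The miR-126a shift changed little in size while its call was often lost, but several alternatives could not change the size. These were the fit of 2 groups, the replicate block, the precursors with counts everywhere, and leaving out a library of the group not compared. Against EPD the shift lay between 1.39 and 1.59 in the 16 alternatives run, and it passed in 7 of them. It was lost with only the 2 groups fitted (adjusted p = 0.0782), with the replicate block (0.122), and without any single Control or EPD library or the second LPD library (0.0567 to 0.236). Against Control it lay between 0.91 and 1.21. It passed there with counts as weights (adjusted p = 0.00693), on counts per molecule (0.0365) and among precursors with counts of both arms in all 9 libraries (0.0499).

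**Figure D3:**
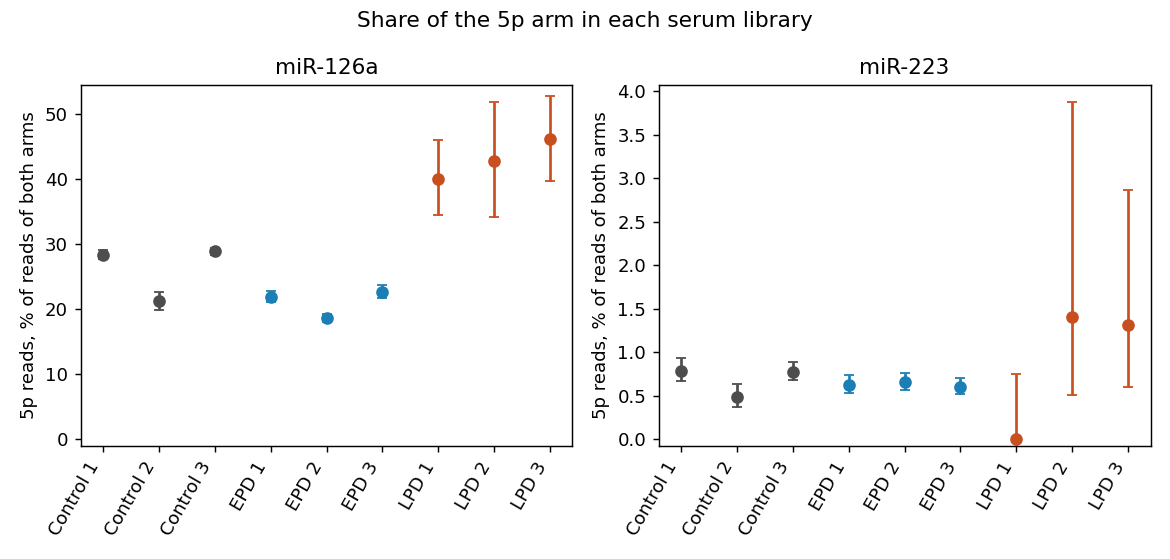
Reads of the 5p arm as a percentage of the reads of both arms (vertical axes, linear, with a separate scale for each precursor) in each library. Bars are Wilson intervals at 95% on estimated molecules. For miR-126a the LPD libraries lie at 40.1 to 46.2% and all others at 18.6 to 28.9%, and for miR-223 LPD 1 is at 0.

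For miR-223 the 5p arm was a small minority. It made up 0.791, 0.486 and 0.775% of miR-223 reads in Control, 0.626, 0.657 and 0.605% in EPD, and 0, 1.41 and 1.32% in LPD. LPD 2 and LPD 3 were above all other libraries and LPD 1 was below all. The 3p arm thus had 148 times the reads of the 5p arm in Control and 158 times in EPD. For LPD 1 the count of 0 allows a share of up to 0.0162% by reads, but 3 molecules of the 506 estimated for both arms are 0.593%, close to the share in Control and EPD. On molecules the interval was 0.505 to 3.88% in LPD 2 and 0.603 to 2.86% in LPD 3, which reach the Control and EPD shares.

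The log2 ratio of the miR-223 arms was -7.21 ± 0.40 in Control and -7.30 ± 0.06 in EPD, which differed by -0.09 (SE 2.21, adjusted p = 0.995, exact permutation p = 0.9). In LPD 2 and LPD 3 it was -6.12 and -6.21, and LPD 1 gave -15.2 only through the 0.5 counts added. The SE of 2.21 pools all 3 groups, LPD 1 included, so it does not measure the spread of Control and EPD alone. With only Control and EPD fitted, the limma adjusted p of their difference was 0.926. With LPD 1 the fitted change was -1.96 against Control (SE 2.21, adjusted p = 0.591) and -1.87 against EPD (adjusted p = 0.591), with an exact permutation p of 1 for each. Without LPD 1 the sign turned, to 1.04 (adjusted p = 0.0954) and 1.13 (adjusted p = 0.0749). With counts as weights the values were 1.0 (adjusted p = 0.0418) and 1.14 (adjusted p = 0.0175). These weights follow reads, of which LPD 1 had 0 for the 5p arm. On counts per molecule the values were -0.17 (limma adjusted p = 0.876) and -0.079 (limma adjusted p = 0.945).

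Arm ratios were tested in 72 precursors with both arms kept. In LPD against EPD 18.1% were called, 6 of them toward the 5p arm and 7 toward the 3p arm. Of these 13, miR-126a was the 1 precursor with counts of both arms in every library, and the other 12 had a 0 for an arm somewhere. In LPD against Control 15.3% were called, and all 11 had such a 0. In EPD against Control limma called 0%, with 1 at an unadjusted p under 0.05. With only these 2 groups fitted, 8 of 79 precursors were under that unadjusted p and 0 were called. Groups did not overlap in 33.3% of precursors for LPD against EPD, in 31.9% for LPD against Control and in 20.8% for EPD against Control. miR-126a was without overlap in the first and second of these, and miR-223 in none.

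Counts of both arms in all 9 libraries were found for 10 precursors. Among these, the lowest count of either arm in any library was 1271 for miR-126a, followed by 1092 for the leukocyte precursor miR-142. For miR-142 the fitted change in LPD was -0.41 against Control and -0.84 against EPD, which did not pass (limma adjusted p = 0.610 and 0.298). Fitted changes against Control and EPD had the direction of miR-126a for miR-30a (0.95 and 1.26), miR-423 (1.29 and 0.81), miR-140 (0.88 and 1.01), let-7d (0.58 and 1.03) and miR-30e (0.67 and 0.93), and none of these 5 passed. The opposite direction was fitted, besides miR-142, for miR-144 (-1.75 and -1.54), miR-150 (-0.91 and -1.39) and miR-378a (-1.68 and -2.06), which did not pass either. With these 10 fitted alone, 4 were called in LPD against EPD (3 toward the 5p arm) and 1 in LPD against Control.

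**Figure D4:**
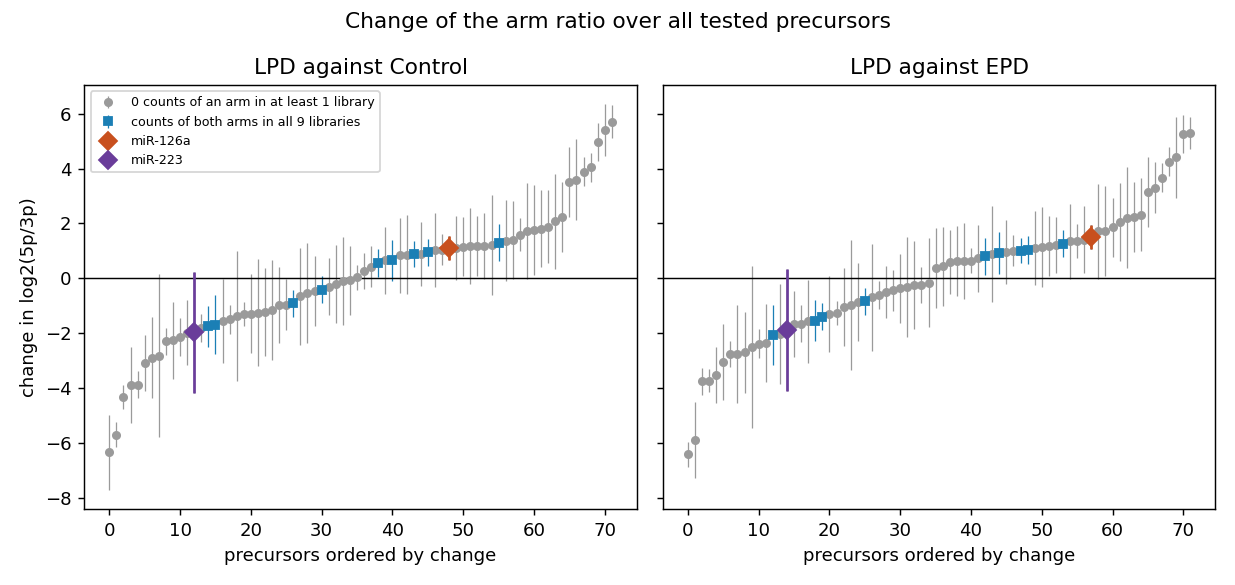
Change in log2(5p/3p) with its SE (vertical axis) for 72 precursors ordered by the change, in LPD against Control and LPD against EPD. Squares and the miR-126a diamond are precursors with counts of both arms in all 9 libraries, and miR-126a stands at 1.1 and 1.50 within the broad range of the others.

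miR-223-3p and miR-126a-3p were also set against each other within each library. miR-223-3p had 1.37, 3.86 and 1.39 times the reads of miR-126a-3p in Control 1, 2 and 3. The ratio was 3.76, 2.41 and 4.95 in EPD and 3.09, 3.47 and 3.69 in LPD. Control 2 thus lay among the treated libraries, and the other controls lay below all of them. The mean log2 ratio was 0.96 ± 0.86 in Control, 1.83 ± 0.53 in EPD and 1.77 ± 0.13 in LPD. EPD against Control differed by 0.87 (exact permutation p = 0.3, adjusted 0.675), LPD against Control by 0.81 (exact permutation p = 0.4, adjusted 0.72) and LPD against EPD by -0.06 (exact permutation p = 0.8, adjusted 1). Without Control 2 the first and second were 1.36 and 1.30. With 3 against 2 libraries an exact test could not give a p under 0.1 either, and their p was 0.2 and 0.1.

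**Figure D5:**
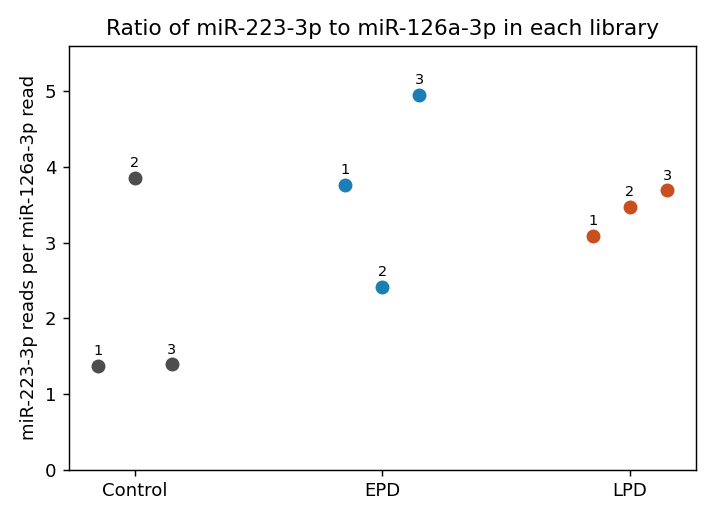
Reads of miR-223-3p per read of miR-126a-3p (vertical axis, linear from 0) in each library, with replicate numbers above the points. Control 1 and Control 3 lie at 1.37 and 1.39, Control 2 at 3.86, and the EPD and LPD libraries between 2.41 and 4.95.

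Other miRNAs of the cells that make the 4 arms were counted without the 4 arms. Over all miRNAs 37.1% were called in LPD against Control, with a median of -1.04, and 36.7% in LPD against EPD. Among the 124 miRNAs with counts in all 9 libraries, fitted apart, the median in LPD against Control was 0.04. The background median thus depends on the set of miRNAs, and the lists were not fitted in that smaller set. In EPD against Control 0 members of any list were called, and 0 of all 294 tested miRNAs. Of 8 endothelial miRNAs, 2 rose and 1 fell in LPD against Control, a share called that is close to the 37.1% of all miRNAs. miR-10b-5p, whose gene lies among the Hox genes, went from 970 to 3030 CPM (adjusted p = 0.00610) and miR-92a-3p of the miR-17/92 cluster from 2138 to 6029 CPM (adjusted p = 0.0102). miR-27b-3p fell from 6784 to 3703 CPM (adjusted p = 0.0102). The same numbers rose and fell against EPD. The median of the 8 was -0.74 against Control, beside -1.04 for all miRNAs. Their summed level was 12133 to 16696 CPM in Control, 12476 to 14869 in EPD and 12362 to 18702 in LPD, and none was at 0 in the whole of LPD.

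Of 7 tested platelet miRNAs, 1 rose and 3 fell in LPD against Control, beside 37.1% called of all miRNAs. Their median of -1.05 was close to the -1.04 of all miRNAs, but below the 0.04 of those with counts in all 9 libraries. miR-191a-5p went from 49934 to 9896 CPM and miR-199a-3p from 39038 to 11214 CPM (adjusted p = 0.00522 each). miR-185-5p went from 959 to 301 CPM (adjusted p = 0.0429), and miR-151-3p rose from 250 to 655 CPM (adjusted p = 0.0392). The LPD means of both are within the 244 to 662 CPM that 3 molecules stand for in LPD. Against EPD 1 rose and 1 fell. The summed platelet level was 146425 to 160946 CPM in Control, 125761 to 198419 in EPD and 83479 to 182129 in LPD.

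Of 8 myeloid miRNAs, 0 rose and 2 fell in LPD against Control, a lower share than the 37.1% of all miRNAs (median -0.20, beside -1.04). Against EPD 0 rose and 3 fell, close to the 36.7% of all miRNAs, among them miR-27a-3p (4442 to 1646 CPM, adjusted p = 0.0322). miR-146a-5p, which dampens Toll-like receptor signalling, fell from 33193 to 14994 CPM (adjusted p = 0.0200), and miR-342-3p from 4272 to 2302 CPM (adjusted p = 0.0308). The summed myeloid level was 67246 to 85821 CPM in Control, 75836 to 101404 in EPD and 42228 to 66068 in LPD. In TMM-scaled CPM every LPD library was below every Control library in this sum. As unscaled shares of all counts the groups overlapped, at 7.45, 5.74 and 8.08% in Control and 4.84, 4.47 and 7.56% in LPD.

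Of 6 lymphocyte miRNAs, 0 rose and 3 fell in LPD against Control (median -0.996), beside 37.1% called and a median of -1.04 over all miRNAs. These were miR-29b-3p (adjusted p = 0.0308) and the miR-146a-5p and miR-342-3p that are also in the myeloid list. Of 6 hepatocyte miRNAs 0 rose and 2 fell (median -1.76), namely miR-148a-3p (19618 to 7237 CPM, adjusted p = 0.00522) and miR-802-5p, which was at 0 in all LPD libraries. Its Control mean of 222 CPM is below the 244 to 662 CPM that 3 molecules stand for in LPD. Under that estimate a 0 in any 1 LPD library does not exclude the Control level. The LPD libraries together were not weighed against this limit. The estimate itself treats undetected miRNAs, miR-802-5p included, as lost in sampling from the mean Control and EPD profile. It thus cannot decide whether miR-802-5p was lost from LPD serum. Of 9 miRNAs listed for red cells, 1 rose (miR-486) and 2 fell (miR-182 and miR-183-5p) in LPD against Control (median 0.62), a share called below the 37.1% of all miRNAs. The LPD mean of miR-182 (308 CPM) is within the level of 3 molecules there, and that of miR-183-5p (151 CPM) is below it. Whether the 2 that fell came from red cells was not tested. The summed level of the 9 was 95295 to 183798 CPM in Control, 169712 to 427735 in EPD and 243647 to 384757 in LPD. The part of red cell content or of the liver miRNAs of Control 2 in the values of the 4 arms was not tested. All LPD libraries had fewer counts than any other library, so lower depth and late treatment cannot be told apart in the LPD comparisons. The part of the lower depth was not tested either.

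The miRNAs most like each arm were sought by the Pearson correlation of log2 CPM over the 9 libraries, among 206 others with at least 50 CPM in a group. The libraries share depth and group, so these values are descriptions. The arms of miR-126a correlated with each other at 0.71 (0.81 after group means were removed), and those of miR-223 at -0.24, with miR-223-5p at 0 in LPD 1, the library highest in miR-223-3p. miR-126a-5p was most like miR-10b-5p (0.94), let-7d-5p (0.92), let-7a-5p (0.91), let-7e-5p (0.90) and miR-6216 (0.84). miR-6216, at 14.7, 22.8 and 364 CPM in Control, EPD and LPD, reached the minimum only through LPD. After removal of group means the 5 correlations were 0.56, 0.42, 0.60, 0.68 and -0.11. miR-126a-3p was most like miR-709 (0.81), miR-10b-5p (0.76), let-7e-5p (0.74), let-7a-5p (0.65) and let-7b-5p (0.63). miR-709 also reached the minimum only through LPD, at 4.40, 8.84 and 151 CPM, and its LPD mean is below the level of 3 molecules there. Within groups the 5 nearest to miR-126a-3p stood at 0.77, 0.93, 0.67, 0.47 and 0.47, in the order named.

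miR-223-3p was most like miR-328a-3p (0.91), let-7d-3p (0.89), miR-1306-5p (0.81), miR-423-5p (0.79) and miR-320-3p (0.69). Within groups these stood at 0.80, 0.88, 0.50, 0.78 and 0.56. For miR-223-5p the nearest were miR-199a-5p, miR-383-5p, miR-191a-3p, miR-326-3p and miR-365-3p (0.92 to 0.94). Of these 5, 4 also had 0 counts in LPD 1 and miR-326-3p had 1.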

How the data were processed

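Serum RNA came from a miRNeasy serum kit and libraries from a QIAseq miRNA kit, per the labels' protocols. The authors deposited whole-number read counts per mature miRNA. A matrix and single files held the same counts (0 values differed). The submitters' processing notes name build mRatBN7.2. Which aligner, counter and annotation were used, and whether molecular identifiers were, is not given in those sources. Repeated reads of a molecule are not independent.

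Groups and replicate numbers came from titles. With edgeR 4.0.16 (R 4.3.3), miRNAs were kept by filterByExpr (10 counts, 15 in total), scaled by TMM and fitted in all 3 groups with the robust quasi-likelihood test. Arm ratios, log2 with 0.5 added, were fitted with limma 3.58.1 over all kept precursors. Benjamini-Hochberg adjustment ran over all features, with threshold 0.05. Molecules were estimated from undetected miRNAs under the mean Control and EPD profile. Alternatives included DESeq2 1.42.0, limma-voom, other scalings and filters, the replicate block and leaving out libraries. The named miRNAs were the 4 arms, the 5 nearest miRNAs of each, and, per list and direction, at most 4 called members with the smallest p. The precursors with counts of both arms in all 9 libraries were named after their values were seen. The members and lists were chosen with earlier results of these data known.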

Additional observations from a re-analysis of the deposited data

How the results depend on the processing

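Each arm level was recomputed under 18 alternatives and each arm ratio under 16. Where counts in all 9 libraries were required, miR-223-5p and its ratio could not be fitted. miR-126a-5p kept its calls and its direction throughout. With the replicate block miR-223-3p in LPD against Control lost its call (1.25), as did the miR-126a ratio in LPD against EPD (1.50), and no other call among the 4 arms and their ratios changed. Deviations of libraries with the same number correlated at -0.11 to 0.06. Libraries with different numbers were not set beside them, so this does not settle whether the numbers pair the libraries. With only 2 groups fitted the same calls were lost (1.26 and 1.50). The miR-126a ratio in LPD against Control passed with count weights (0.91), on counts per molecule and among the 10 full precursors (1.1 each). limma-voom turned miR-223-5p to -0.077 against Control and -0.96 against EPD. diffSpliceDGE turned the miR-223 ratio to 0.004 (EPD against Control), 0.37 (LPD against Control) and 0.37 (LPD against EPD), and count weights to 1.0 and 1.14 in the last 2. On counts per molecule the miR-223 ratio was -0.17 and -0.079 in these, and neither passed.

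Leaving out each library in turn gave these ranges. For levels in EPD against Control, miR-126a-3p ran from -0.16 to 0.32, miR-126a-5p from -0.50 to -0.09 and miR-223-3p from 0.64 to 1.45. In LPD against Control miR-126a-3p ran from 0.43 to 0.94, miR-223-3p from 0.90 to 1.86 and miR-223-5p from 0.76 to 2.37. In LPD against EPD miR-126a-3p ran from 0.28 to 0.75, miR-223-3p from 0.22 to 0.65 and miR-223-5p from -0.16 to 1.45. The miR-126a ratio in EPD against Control ran from -0.59 to -0.29. The miR-223 arm ratio ran from -0.32 to 0.033, from -3.49 to 1.04 and from -3.40 to 1.13 in the 3 comparisons. The miR-126a ratio in LPD against EPD ran from 1.39 to 1.59, and miR-223-3p over miR-126a-3p in LPD against EPD from -0.34 to 0.18. The causes were not tested.

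Scaling moved the median of all miRNAs in LPD against Control from -1.04 to -0.83 (RLE size factors) and -0.86 (library totals), and no call among the 4 arms changed with it. Calls there numbered 109, against 52 with 2 groups, 38 (16 higher, 22 lower) with counts in all 9 libraries and 31 on counts per molecule, and in LPD against EPD 108, against 67, 35 and 29. DESeq2 called 31 higher and 91 lower in LPD against EPD, against 12 and 96. Arm ratio calls in LPD against Control numbered 11, against 17 with diffSpliceDGE, 7 with 2 groups, 26 on counts per molecule, 25 without LPD 1 and 23 without LPD 3. In LPD against EPD they numbered 13, against 29 on counts per molecule, 28 without LPD 1 and 25 without LPD 3.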
